A study of Homo sapiens with 6 samples.

Results

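CDKN1B and the regulators that govern passage through G1 were examined in RT-stop profiles of U2OS cells, a human osteosarcoma line. The set held 10 genes out of 9036 genes with a matched transcript, namely the CDK inhibitors CDKN1B and CDKN1A, the kinases CDK2, CDK4 and CDK6, the cyclins CCND1, CCNE1 and CCNE2, and the degradation factors SKP2 and CKS1B. They were picked by gene name, and each was represented by 1 RefSeq transcript, for example NM_004064 for CDKN1B. In RT-stop profiling, poly(A)-selected mRNA is cut into short fragments and reverse transcribed, and the end of each cDNA marks a nucleotide at which reverse transcriptase (RT) halted. There were 6 libraries, 1 per condition, so no difference between conditions has a replicate check and every interval given here covers counting error only. Of these, 2 libraries came from RNA without dimethyl sulfate (DMS), reverse transcribed in 150 mM K+ or 150 mM Na+. In 2 others the RNA was folded and treated with DMS in vitro in 150 mM K+ or Li+. The last 2 came from cells treated with 8% DMS for 5 min, either unstressed in full medium or after 2 h of starvation in Hank's balanced salt solution. By the labels, RT took place in 150 mM K+ for all 4 DMS libraries, the one folded in Li+ included. The study's methods name Li+ where the labels name Na+ for RT without DMS, and the labels are followed here. The sample labels of the 2 libraries without DMS also contradict the names of their deposited files. They are therefore called the library labelled K+ and the library labelled Na+, and each statement that rests on the cation is given for both assignments.

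Cyclin D1 with CDK4 or CDK6, and cyclin E with CDK2, phosphorylate the retinoblastoma protein and release the transcription factors that start S phase. p27, the product of CDKN1B, and p21, the product of CDKN1A, bind and block these cyclin-CDK complexes, and SKP2 together with its partner CKS1B marks p27 for destruction by the proteasome. The CDKN1B 3′ UTR is a known target of miR-221 and miR-222 and of Pumilio proteins. RNA G-quadruplexes (rG4s) are stacks of guanine quartets held by K+, and a folded rG4 halts RT at its 3′ edge. DMS blocks RT at A and C, and it methylates guanines that are not held in a quartet, after which the rG4 cannot form again and the RT stop is lost.

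The sequences below are the 30 nt that end at a G stop of some of the G-rich sites described later. They are shown because they hold the runs of guanines at which RT halted. At CCND1 1367 and CDK4 129 a neighbouring G had more stops in the library labelled Na+. Capitals mark runs of at least 2 guanines, the last letter is the nucleotide of the stop, and the letters are those of GRCh37 read along the transcript.
CDKN1B 1382, 3′ UTR, exon 3, chr12:12874245-12874274, plus strand: taaactttGGGGaaGGGaGGGcaGGGtGGG
CDKN1B 403, 5′ UTR, exon 1, chr12:12870675-12870704, plus strand: cttccgagaGGGGttcGGGctgcgtaGGGG
CCND1 1367, 3′ UTR, exon 5, chr11:69466291-69466320, plus strand: tgcataaccctgagcGGtGGGGGaGGaGGG
CCND1 2276, 3′ UTR, exon 5, chr11:69467200-69467229, plus strand: tgtGGtGGcagtGGaGGtGGGGtgtttGGG
CDK2 2022, 3′ UTR, exon 7, chr12:56366268-56366297, plus strand: ttcaGGGctgtgattgagtgaGGGcatGGG
CDK4 129, 5′ UTR, chr12:58146102-58146131, minus strand: tGGtcacatGGtgaGGGtGGGGGtgaGGGG
CKS1B 79, 5′ UTR, exon 1, chr1:154947167-154947196, plus strand: GGGagttgcttGGaGGttGGcGGcgcGGGG
The number after each gene is the position in the RefSeq transcript, counted from 1. The CDK4 stretch lies upstream of the annotated start of the matched GENCODE transcript, where the genome reads on, and all 23 listed bases of that part had the base of the genome. The CDKN1B 1382 stretch holds 5 runs of at least 3 G. The classical rG4 motif, 4 such runs joined by loops of 1 to 7 nt, is found at least once in 14.5% of 8708 matched 3′ UTRs. CCND1 held 1 such match in its 3′ UTR and the other 8 genes held none there.

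The listed stops summed to between 12999691 and 35371061 per library, fewest in unstressed cells, and matched transcripts held 95.4% to 95.7% of them. Only nucleotides with at least 3 stops are listed. For each transcript the total number of stops was rebuilt from the deposited values, and its share of the rebuilt library total, in stops per 1000000 stops (SPM), was used as its level. Of the 7 mesenchymal and bone markers looked up, VIM had a share between 2487 and 2985 SPM in the 6 libraries, and CD44 had 194 to 255. SPARC, COL1A1 and FN1 had 950, 660 and 254 SPM in unstressed cells but 282, 184 and 89.1 in starved cells, whereas RUNX2 had 27.0 and 47.9. COL1A2, like the blood and liver markers, had no matched transcript with listed stops. Of the 4 epithelial markers, KRT8 and KRT18 had 278 and 152 SPM in unstressed and 114 and 56.1 in starved cells, EPCAM had 5.77 to 10.9 in the 6 libraries and CDH1 had no matched transcript with listed stops.

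CKS1B was the most densely covered of the regulators in the library labelled K+ and in both in-cell libraries, and CDK6 and CCNE2 were the least covered in the library labelled K+ and in unstressed cells. In SPM per kb of transcript, which allows levels to be compared between genes, CKS1B reached 269 in the library labelled K+. CDK4 followed with 104, CDKN1A with 97.9, CCNE1 with 72.5, CCND1 with 61.4 and CDK2 with 42.3. CDKN1B had 38.9 and SKP2 37.0, and CCNE2 had 16.8 and CDK6 16.5. The counting intervals of CDKN1B and SKP2 overlapped, as did those of CCNE2 and CDK6, while all other neighbours in this order were apart. In unstressed cells the order was the same except for CDK6 (10.9) and CCNE2 (9.17), which changed places. No stop at G or U of CCNE2 was listed there, so its level counts stops at A and C alone. The order of these last genes in unstressed cells is therefore uncertain. In starved cells CKS1B (565) and CDK4 (87.4) still led, but CDKN1B (43.6) stood close behind CDKN1A (46.7) with overlapping intervals, SKP2 (28.3) and CDK2 (28.2) also overlapped, and CCND1 had moved down to 15.4.

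CDKN1B had a higher share in starved than in unstressed cells, and CDKN1A a lower one. CDKN1B had shares of 93.8 and 95.2 SPM in the libraries labelled K+ and Na+, 91.4 and 90.6 in vitro in K+ and Li+, 76.9 in unstressed cells and 105 in starved cells. The 4 libraries from RNA handled outside cells were close to each other, the unstressed cells lay below them and the starved cells above them. The fold in starved over unstressed cells was 1.37 (95% interval 1.28 to 1.46), from 1333 and 3043 stops, below the 1.5-fold limit used to call a difference. For CDKN1A the shares were 212 and 217 without DMS, 236 and 229 in vitro, 338 in unstressed cells and 101 in starved cells. Its 2 in-cell libraries lay on opposite sides of the other 4, and the share in unstressed cells was 3.35-fold that in starved cells (fold 0.299, 95% interval 0.286 to 0.312). RNA per cell was not measured, so a share that is lower cannot be told apart from a larger part taken by other transcripts, nor fewer cells with a transcript from less of it per cell.

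Among the kinases, CDK4 was lower in starved cells and CDK6 differed little. CDK4 had shares of 210, 216, 226 and 226 SPM in the 4 libraries made outside cells (labelled K+, labelled Na+, in vitro K+, in vitro Li+), 336 in unstressed cells and 177 in starved cells. This gave a fold of 0.526 (0.507 to 0.547) in starved over unstressed cells. CDK2, the partner of cyclin E, had 98.4, 96.8, 101 and 96.7 in the same 4 libraries, 110 in unstressed and 65.5 in starved cells, a fold of 0.593 (0.556 to 0.632). CDK6 had 192, 187, 196 and 193 outside cells and was lower in both in-cell libraries, with 127 unstressed and 121 starved. Its fold was 0.949 with an interval that reached 1.

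Of the cyclins, CCND1 and CCNE1 had lower and CCNE2 higher shares in starved cells. CCND1, the growth factor responsive cyclin, had shares of 264, 293, 273 and 254 SPM outside cells, 227 in unstressed and 66.4 in starved cells. The fold was 0.293 (0.277 to 0.309), with an interval that overlaps that of CDKN1A. With listed stops alone the log2 fold was -2.68 in place of -1.77, below that of CDKN1A (-2.26 in place of -1.74). CCNE1 had 147, 140, 150 and 148 outside cells, 179 in unstressed and 78.6 in starved cells, a fold of 0.440 (0.416 to 0.464). CCNE2 went the other way, with 45.9, 46.4, 46.3 and 48.9 outside cells, 25.1 in unstressed and 64.7 in starved cells. Its fold was 2.58 (2.32 to 2.87), but rested on 435 stops in unstressed cells, where no stop at G or U of this transcript was listed. With listed stops alone its log2 fold was 2.37 in place of 1.37. With stops at A and C alone, which compares the same bases in both libraries, it was 1.20.

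Of the genes that act on p27 degradation, CKS1B had shares of 224, 221.9, 219 and 211 SPM outside cells, 305 in unstressed and 471 in starved cells. Both in-cell libraries were above the other 4, and the fold was 1.54 (1.49 to 1.59). SKP2, the substrate receptor, had 130, 124, 134 and 133 outside cells, 105 in unstressed and 99.7 in starved cells, a fold of 0.947 (0.893 to 1.00).

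**Figure D1:**
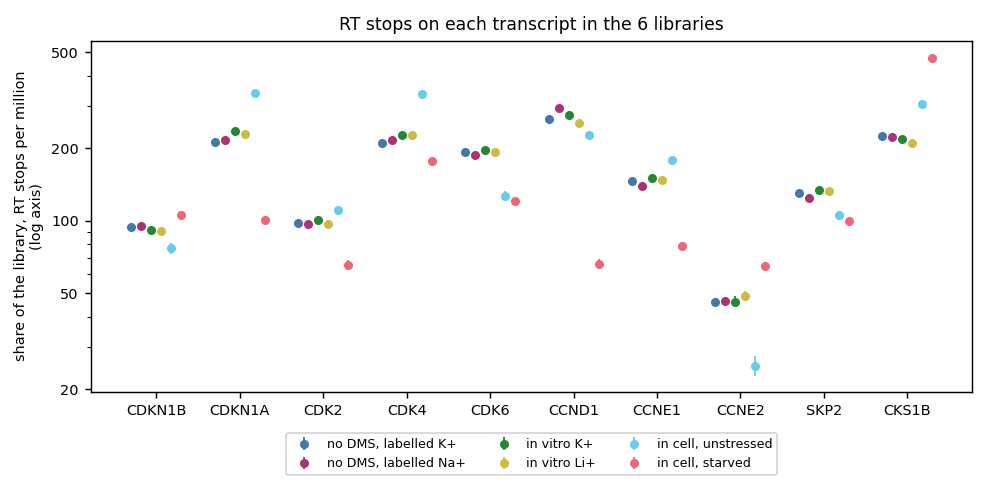
Share of each of the 10 transcripts in the 6 libraries, in RT stops per 1000000 (SPM) on a log axis, with 95% counting intervals as bars (1 library per condition). CDKN1A, CDK4, CCND1 and CCNE1 have lower shares in starved than in unstressed cells, CCNE2 and CKS1B higher ones, and the 4 libraries made outside cells lie close together for each gene.

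A transcript was counted as called when its mean reached 1 stop per nt in the larger of the 2 in-cell libraries and its share differed by at least 1.5-fold. Of the 10 genes, 5 reached this mean, and of these CDKN1A, CDK4 and CCNE1 were called lower and CKS1B was called higher. All 4 reached the mean in both in-cell libraries. CKS1B lost its call with listed stops alone (log2 fold 0.55), with median-of-ratios scaling (0.45) and with stops at G and U alone (0.57), while CDKN1B was called higher with listed stops alone (0.78). CDKN1B reached the mean only in starved cells (1.26 against 0.552 stops per nt in unstressed cells), the library in which it is higher, so its call rests on a minimum passed through that library. Among all 2520 transcripts that reached it, 30.2% were called lower and 34.1% higher. With a mean of 0.25 all 10 genes entered, and CDK2 and CCND1 were called lower and CCNE2 higher as well, against 38.7% lower and 26.8% higher of 5955 transcripts. CCNE2 passed this lower minimum only through the starved library, in which it is higher (0.683 against 0.159 stops per nt).

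The fold in starved over unstressed cells followed the GC content of the transcript. Across the 2520 transcripts Spearman's rho between the log2 fold and GC content was -0.76, a description over transcripts that share the same 2 libraries. Both in-cell libraries departed from the library labelled K+ with GC content, with a rho of 0.79 for unstressed and -0.45 for starved cells over 2519 transcripts, so the unstressed library stood apart as well. The in vitro libraries followed GC content too (0.61 in K+ and 0.54 in Li+), with an SD of the log2 ratio of 0.12 and 0.11 against 0.58 and 0.91 in unstressed and starved cells. The median log2 fold was 0.95 in the fifth of transcripts with the lowest GC content and -1.55 in the fifth with the highest. The regulators spanned much of this range, from 35.2% GC for CCNE2 and 39.4% for CDK6 to 52.8% for CDK4 and 57.2% for CDKN1A. Each log2 fold was therefore also given relative to the median of the 500 transcripts nearest in GC content among these 2520. This alternative was chosen after seeing the data. CDKN1B then went from 0.45 to 0.06, CKS1B from 0.63 to 0.17 and CCNE2 from 1.37 to 0.41, so none of the 3 was past 1.5-fold on this scale. CDKN1A went from -1.74 to -0.41 and CDK4 from -0.93 to -0.31, and neither stayed past 1.5-fold. CCND1 stayed far below its neighbours in GC content at -1.63, and CCNE1 at -1.08. CDK2 stood at -0.97, CDK6 at -0.94 and SKP2 at -0.73, below transcripts of like GC content although the plain folds of CDK6 and SKP2 were near 1. CCND1, CDK2, CDK6, SKP2 and CCNE2 are under the minimum of 1 stop per nt, whereas the transcripts they are set against here are all past it. What part this difference in coverage has in their values was not tested. Of the 5 regulators past the minimum only CCNE1 was past 1.5-fold on this scale. Of the 2520 transcripts, all past the minimum, 20.8% were past 1.5-fold lower and 18.2% higher. The part of GC content in the share of any single gene was not tested.

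**Figure D2:**
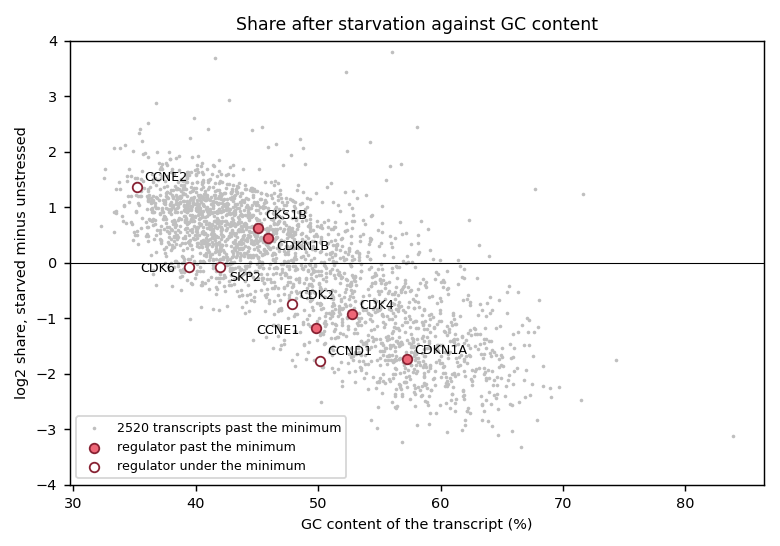
The log2 share in starved minus unstressed cells against the GC content of each transcript in percent, with 2520 transcripts past the minimum in grey and the 10 regulators named (filled, past the minimum; open, under it). CDKN1B, CKS1B, CDK4 and CDKN1A lie within the grey band at their GC content, and CCND1 lies at its lower edge.

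The in-cell libraries also differed from each other in the share of stops at A and C, the bases at which DMS blocks RT. What part this has in the shares above was not tested. For CDKN1B, A and C took 51.7% and 47.6% of the stops without DMS, 77.1% and 77.9% in vitro, 85.3% (95% exact binomial interval 83.3 to 87.2) in unstressed cells and 77.5% (76.0 to 79.0) in starved cells. In CDKN1B the share in starved cells was thus close to that in vitro and below that in unstressed cells. In the other 9 genes it was below both in vitro shares, as in CDKN1A (68.8% against 75.2% and 73.7%), and the medians over 1367 transcripts were 73.6% in starved cells and 77.2% and 77.1% in vitro. In CDKN1A, CDK4, CCNE1 and CKS1B, the genes whose mean reached 1 in both in-cell libraries, the share in starved minus that in unstressed cells was between -9.23 and -13.1 percentage points. CDK4 showed the widest gap of the 4, with 81.9% in unstressed and 68.8% in starved cells. This was general, as 99.9% of 1367 transcripts had a lower share of stops at A and C in starved cells. CCNE2 gave no usable share in unstressed cells, since none of its 88 listed stops there was at G or U.

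The 3′ UTR took a larger part of the stops in the in-cell libraries than in the other 4. Of the listed CDKN1B stops, 89.7% and 90.8% lay in the 3′ UTR without DMS, 86.4% and 85.9% in vitro, 98.6% in unstressed and 98.7% in starved cells. The coding sequence held 7.48% of the listed CDKN1B stops in vitro in K+ but 1.17% (95% interval 0.765 to 1.71) in starved cells, although the starved library had more CDKN1B stops (3043 against 2618). All 10 genes had a larger 3′ UTR share in each in-cell library than in any of the other 4. CCNE1 went from 32.0% in vitro in K+ to 55.5% in unstressed and 62.9% in starved cells. Over the 1328 transcripts whose mean reached 1 in every library the median 3′ UTR share was between 35.8% and 37.2% outside cells, 51.5% in unstressed cells and 50.7% in starved cells. The 5′ UTR of CDKN1B held 107 and 103 listed stops without DMS but 6 in unstressed and 3 in starved cells, and none of these in-cell stops was at G.

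**Figure D3:**
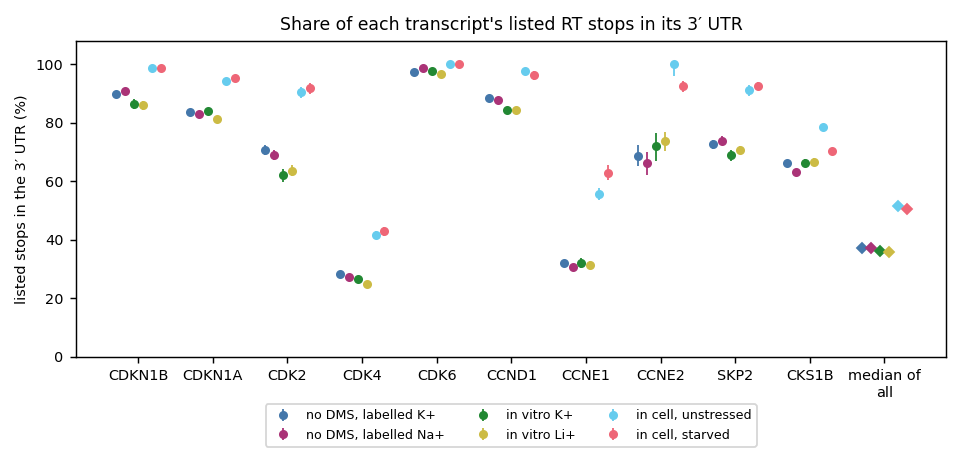
Percentage of each transcript's listed RT stops that lie in its 3′ UTR in the 6 libraries, with 95% exact binomial intervals, and as diamonds the median over 1328 transcripts. In every gene the 2 in-cell libraries have the highest shares, from 41.6% in CDK4 to 100% in CDK6 and CCNE2.

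To look for rG4s, stops at G in the UTRs were searched in the libraries without DMS. E is the stop count of a nucleotide divided by the mean count per nt of its transcript, and a stop is called strong from an E of 10 upwards. The library labelled K+ was examined first. There, the 8 genes with a mean of at least 1 held 1173 listed G in their UTRs, and 0 of these were strong, against 0.317% of 309402 listed G of all transcripts. In the library labelled Na+ they held 1161, of which 15 (1.29%) were strong, against 1.42% of 295585. These 15 lay in 5 genes, with 3 in CDKN1B, 2 in CDK2, 3 in CDK4, 6 in CCND1 and 1 in CKS1B. The library labelled Na+ exceeded the library labelled K+ at least 2-fold in E at all 15, against 82.1% of 4064 strong stops of all transcripts. In the opposite direction, 16.1% of 932 strong stops of the library labelled K+ were at least 2-fold stronger there. By the labels, then, no strong or K+-dependent G stop was found in the UTRs of the regulators, and there were 15 of each once the 2 labels were exchanged. Of the 15 sites, 14 were preceded within 45 nt by 4 runs of 2 or more G (loops of 1 to 9 nt), which held for 11.6% of the listed G. The classical motif preceded 4, and it held for 1.07%. These percentages are over all listed G, and the share among strong stops of all transcripts was not determined. Several of the 15 are neighbours in the same run of G, and the 3 CDKN1B stops lie behind the same classical match.

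The strongest CDKN1B stop was position 1382, at the 3′ edge of the guanine runs printed above. It had 6 stops in the library labelled K+ and 253 (95% Poisson interval 223 to 286) in the library labelled Na+, 11 and 8 in vitro in K+ and Li+, fewer than 3 in unstressed cells and 10 in starved cells. The library labelled Na+ stood apart from all others. E was 151.7 there and 3.49 in the library labelled K+, a ratio of 43.4 (95% interval 19.7 to 120). The preceding G at 1381 had 32 stops and the following G at 1383 had 12 in the library labelled Na+, and neither was listed in the library labelled K+. A separate strong stop at 1405, 23 nt downstream and within a run of 4 G (1404 to 1407), had 27 stops (E of 16.2) in the library labelled Na+ only, followed by 14 and 3 stops at 1406 and 1407. This was at least 9.27-fold stronger than in the library labelled K+, taking 3 counts as the limit of what would be listed there.

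In the CDKN1B 5′ UTR no G stop reached an E of 10 in any library. Its highest was at 403, within the runs GGGG, GGG and GGGG printed above, with 15 stops in the library labelled Na+ (E of 8.99) and no listing in the other 5 libraries. The 4 next highest of that library, at 67, 379, 385 and 392, had 3 to 5 stops. In the library labelled K+ no G of the 5′ UTR had more than 4 stops. In the 3′ UTR the 5 strongest G stops of the library labelled K+ were at 1121, 1692, 1786, 1815 and 2348, with 8 to 11 stops and an E of 4.66 to 6.40. None of these 5 was preceded within 45 nt by 4 runs of 2 or more G with loops of 1 to 9 nt. Each had fewer stops in the library labelled Na+ (3 to 8).

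**Figure D4:**
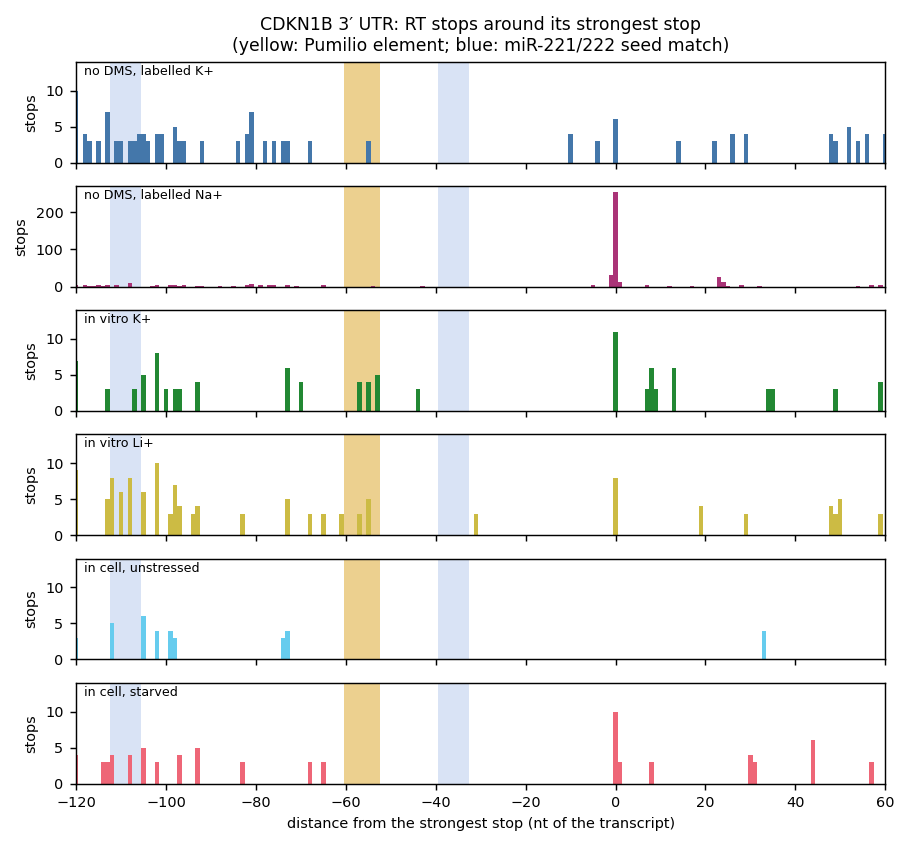
RT stops at each listed nucleotide of the CDKN1B 3′ UTR from 120 nt upstream to 60 nt downstream of its strongest stop in the 6 libraries, with the Pumilio element in yellow and the miR-221 or miR-222 seed matches in blue. The y axis of the library labelled Na+ reaches higher than the others, since it has 253 stops at the strongest position where the others have at most 11.

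CCND1 had the largest number of strong G stops. Its pair at 1366 and 1367 had 469 and 414 stops in the library labelled Na+ against 8 and 6 in the library labelled K+. Position 1367 had 9 and 5 stops in vitro in K+ and Li+, fewer than 3 in unstressed cells and 5 in starved cells. The ratio of E between the libraries labelled Na+ and K+ was 55.3 (27.8 to 129) at 1366 and 65.1 (29.6 to 178) at 1367. A further site at 2276 had 173 against 5 stops, and position 4171, which alone of the CCND1 sites follows the classical motif, had 31 against 4. Outside the UTRs, the GAGGAGG repeat near the end of the CCND1 coding sequence gave strong stops at 1047, 1050 and 1053 with 52, 36 and 71 stops in the library labelled Na+ and none listed in the library labelled K+.

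In CDK2, positions 1302 and 2022 of the 3′ UTR had 26 and 53 stops in the library labelled Na+ against 6 and 4 in the library labelled K+. In CDK4 the strong stops lay in the 5′ UTR, with 103, 69 and 71 stops at 128, 129 and 130 in the library labelled Na+, where the library labelled K+ listed only 129, with 4. In CKS1B, position 79 had 117 against 48 stops, the smallest ratio of the 15 at 2.57 (1.82 to 3.68). CDKN1A, CCNE1 and SKP2 reached the minimum in both libraries without DMS but had no strong G stop, and their highest E at G in a UTR was 6.84 in CDKN1A, 4.80 in CCNE1 and 6.11 in SKP2. CDK6 and CCNE2 had means of 0.678 to 0.741 stops per nt in these libraries, which is too low for the search.

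**Figure D5:**
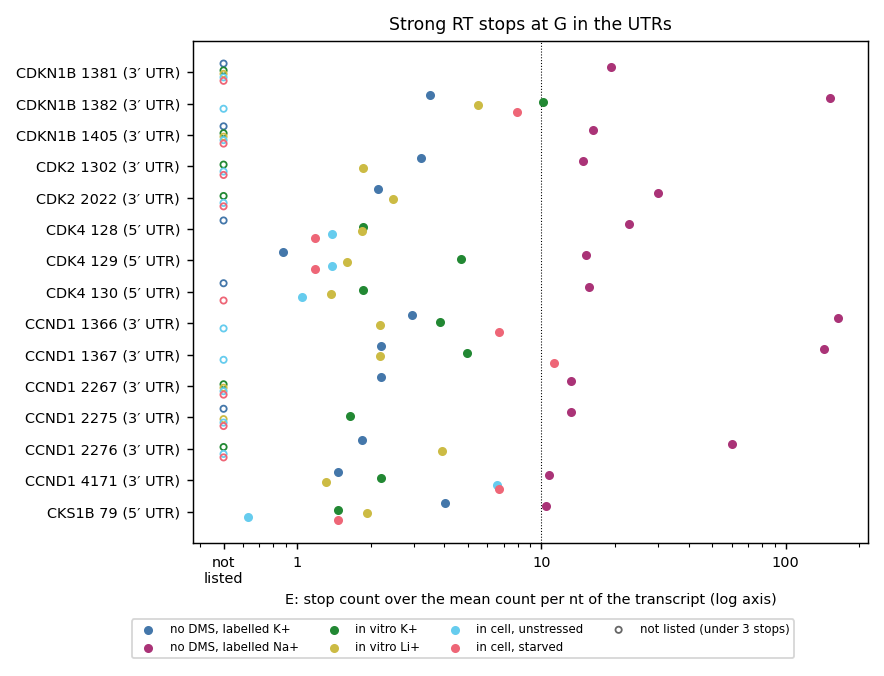
E (stop count over the transcript's mean count per nt, log axis) at the 15 strong G stops of the UTRs, with 1 point per library and open points at the left for libraries that list fewer than 3 stops. The library labelled Na+ lies right of the dotted line at 10 at all 15 sites, and of the other libraries only in vitro K+ at CDKN1B 1382 and starved cells at CCND1 1367 do so.

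Whether the sites fold was asked by comparing RNA folded and DMS-treated in K+ with that in Li+, where a protected rG4 keeps its RT stop. Of the 15 sites, 8 had listed stops in both in vitro libraries, and 2 of the 8, CCND1 1367 and CDK4 129, were at least 2-fold stronger in K+, against 22.9% of 1344 sites of all transcripts (17.9% of 28 such sites when the labels are followed). CDKN1B 1382 had an E of 10.1 in K+ and 5.48 in Li+, a ratio of 1.85 with an interval from 0.678 to 5.30, so a difference was not detectable at this depth. CCND1 1367 had an E of 4.95 in K+ and 2.18 in Li+, and its ratio of 2.27 had an interval of 0.683 to 8.62 that also held 1. For CDK4 129 the 15 and 7 stops gave a ratio of 2.91 (1.12 to 8.43), the only interval of the 8 above 1, while its neighbours 128 and 130 had ratios of 1.02 and 1.36. With neighbouring G stops summed, CDK4 had 30 stops in K+ and 26 in Li+, a ratio of 1.57 (0.895 to 2.76) with an interval that holds 1.

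The in vivo folding score places the E in cells between the in vitro E in Li+ (score 0) and in K+ (score 1). It was given where all 4 DMS libraries had 1 or more stops per nt of the transcript and the in vitro ratio had an interval above 1. By the labels no G stop of the UTRs was strong, so there was no site to score. Of the 15 sites strong in the library labelled Na+ only CDK4 129 met these conditions, and with neighbouring stops summed none did. There it had 15 (K+) and 7 (Li+) stops in vitro, 4 in unstressed and 3 in starved cells, which gave scores of -0.07 and -0.14 for unstressed and starved cells. With E taken relative to stops at G and U alone they were 0.12 and -0.21, so the sign in unstressed cells turns with the scale. The ratio of E at CDK4 129 in starved over unstressed cells was 0.854 (0.125 to 5.05), so no difference was detectable. This site lies in the 5′ UTR, and in-cell stops lay more in the 3′ UTR. The highest E at a G of the CDK4 5′ UTR was 4.67 and 2.76 in vitro in K+ and Li+. It was 2.43 and 1.98 in unstressed and starved cells. What part this has in the scores was not tested. Counts were too low for a score at CDKN1B 1382, where the transcript mean in unstressed cells was 0.552 and no stop was listed there, against 10 stops and an E of 7.93 in starved cells. CCND1 had means of 0.912 and 0.446 in unstressed and starved cells and CDK2 0.823 and 0.814, and their sites were too low as well. At CKS1B 79, which had 4 and 24 stops in unstressed and starved cells, the in vitro ratio of 0.76 (0.33 to 1.68) gave no range for a score.

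The guanine runs of CDKN1B lie next to known regulatory elements, of which the letters and the stops are given here. The stretches are from exon 3 on the plus strand of chromosome 12, with the element in capitals.
Pumilio element at 1322, chr12:12874203-12874232: tgtactacctgTGTATATAgtttttacctt
miR-221 or miR-222 site at 1343, chr12:12874224-12874252: ttttaccttttATGTAGCacataaacttt
miR-221 or miR-222 site at 1270, chr12:12874151-12874179: aaaagcgttggATGTAGCattatgcaatt
Pumilio element at 2138, chr12:12875019-12875048: aagtgtacctgTGTACATAactctgtaaaa
The mature miRNAs, from RefSeq on GRCh38.p14, have their seed (bases 2 to 8) in capitals, and both share it.
hsa-miR-221-3p: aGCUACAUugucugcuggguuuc
hsa-miR-222-3p: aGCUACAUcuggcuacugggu
The Pumilio element TGTANATA was present in 30.3% and the seed match ATGTAGC in 9.16% of 8708 matched 3′ UTRs, and CDKN1B held 2 of each. Of the other regulators CDKN1A had 1 Pumilio element, CCNE2 had 2 and CDK6 had 1 seed match. The seed match at 1343 ended 33 nt and the Pumilio element at 1322 ended 53 nt upstream of the strong stop at 1382. None of the 7 nt of the seed match at 1343 was listed in any library. In the 50 nt upstream of the strong stop, 2 and 3 nt were listed in the libraries labelled K+ and Na+, 1 in each in vitro library and 0 in each in-cell library, whereas the 50 nt before that had 13, 17, 9, 12, 4 and 5 in the same order. The stretch with few stops was thus also present in the library labelled K+, where the G stop had only 6 counts. At the seed match at 1270 the listed stops were 16 and 14 without DMS, 3 and 22 in vitro, 5 in unstressed and 8 in starved cells. At the Pumilio element at 1322, stops at A numbered 13 in K+ and 8 in Li+ after folding in vitro, and 3 in the library labelled K+, and none was listed in either in-cell library. The element at 2138 had 12 stops in starved cells, all at A or C, and none listed in unstressed cells. With so few stops, and with fewer CDKN1B stops in unstressed cells, no difference between unstressed and starved cells could be read at these elements. The seed match at 1270 had a mean E of 0.395 in vitro in K+ against 2.15 in Li+. Nucleotides with fewer than 3 stops are not listed and count as 0 here, so the size of that difference is uncertain.

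Of 37 other genes of the G1 to S transition on a list made for this comparison, 20 reached the minimum in the in-cell libraries. Of these 7 were called higher and 8 lower in starved cells, beside 34.1% higher and 30.2% lower of all 2520 transcripts, and the median log2 fold was 0.18 beside 0.17. The minimum was passed only through the library in which the gene is higher by 4 of the 7 and 5 of the 8. Of the 10 listed genes past it in both in-cell libraries, 3 were higher and 3 lower, beside 28.9% and 31.2% of 1367 transcripts. Relative to transcripts of like GC content 3 of the 20 were higher and 5 lower, beside 18.2% and 20.8% of all transcripts, with a median of -0.33 beside -0.01. CKS2, the paralogue of CKS1B, had a log2 fold of 1.03, or 0.31 relative to transcripts of like GC content. CCND2 and CCND3, the other D cyclins, had -0.37 and -2.49, or -0.79 and -1.06 relative to transcripts of like GC content. CCND3 passed the minimum through the unstressed library, in which it is higher (131 against 23.3 SPM in starved cells). CCND1 also lay below transcripts of like GC content but is under the minimum.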

How the data were processed

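The authors discarded duplicate reads and kept reads that Bowtie placed at 1 position of hg19 transcripts with no mismatch. For every nucleotide with 3 or more RT stops they deposited the stop count and its ratio to a mean count, which in the files is taken over the nucleotides of that base in the transcript. From the listed bases, 9037 of 15739 transcripts were assigned to GENCODE (release 44) transcripts on GRCh37, and transcript totals were rebuilt from the base means and base counts. Unlisted positions were taken as 0. Intervals are 95% exact binomial, Poisson or conditional binomial intervals. No p-value was calculated. The regulators and lists were chosen with earlier results of these data known. Named G stops had an E of 10 or more without DMS, or were the 5 strongest of a CDKN1B UTR in either of these libraries. In simulated libraries, 97.0% of rebuilt in-cell totals were within 5% of the truth. All 200 transcripts with planted folds of 0.25, 0.5, 2 or 4 and 2 of 1300 unchanged ones passed 1.5-fold, and folds nearer to 1.5 were not simulated. The simulated transcripts were all past the minimum, which CDK2, CDK6, CCND1, CCNE2 and SKP2 are not. Both simulated in-cell libraries had the same expected split of stops among the bases. Software was Python 3.11.15 with pandas 2.3.3, numpy 2.4.6, matplotlib 3.10.9 and scipy 1.17.1.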

Additional observations from a re-analysis of the deposited data

How the results depend on the processing

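No paired analysis was possible because each condition has 1 library and none carries a replicate number. Of the 10 regulators, 4 were called between starved and unstressed cells. The number was 2 at a 2-fold limit, 7 with a transcript mean of 0.25 (CCNE2 only through the starved library) or with no minimum, and 1 after GC centring (CCNE1), which was added after seeing the data. With listed stops alone, median-of-ratios scaling, A and C or G and U stops alone, or a lower fold limit it was 3 to 5. With listed stops alone CDKN1B was called higher (log2 0.78) and CKS1B no longer was (0.55), and CCND1 and CCNE2 moved to -2.68 and 2.37. Strong G stops by the labels numbered 0, and 16 with an E of at least 5, 7 of them K+-dependent. A minimum of 0.25 gave 1 (CDK6), both strong and K+-dependent. After exchanging the labels of the libraries without DMS both counts were 15. Combined with this, both were 6 at an E of 20, 14 with the deposited ratio and 16 at a minimum of 0.25. At an E of 5 they were 35 and 28, and K+-dependent stops numbered 15 at 1.5-fold and 14 at 3-fold. These combinations were added after seeing the data. In vitro, 2 sites were 2-fold stronger in K+ in each other alternative and 1 with neighbouring stops summed, added after seeing the data. CDK4 129 was the only scorable site in the 4 alternatives run for the score. The exchange of the labels is among these and could not differ, since sites strong in either library without DMS entered every run. By the labels CDK4 129, with an E of 0.872 in the library labelled K+, was not strong, and no site would be scored. With neighbouring stops summed, the CDK4 interval (0.895 to 2.76) left none to score. The A and C share was lower in starved cells in all 4 genes compared, and in 8 of 8 at a minimum of 0.25. Depth is one limit, as 5 genes had under 1 stop per nt in both in-cell libraries, and the single library per condition and the relation to GC content are others.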
